A study of Mus musculus with 8 samples.

Results

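Transcripts of 34 genes of the chemokine system, 26 ligands and 8 receptors, were followed in mouse peritoneal macrophages with and without the mineralocorticoid receptor and with and without corticosterone. The genes were taken by name from a list of chemokines and their receptors. All 34 were found among the 18193 genes on the arrays, each represented by its brightest probe set, and 13 of them had further probe sets. The values are log2 RMA levels, on which a difference of 1 unit is a 2-fold difference. The cells were elicited with 3% thioglycolate in male C57BL6/J mice, collected 4 days later, kept by adherence in medium with 10% serum, and left untreated or given 1 µM corticosterone for 24 h. Control mice were MR fl / fl, with loxP sites around the mineralocorticoid receptor gene Nr3c2 that both genotypes carry. Knockout mice were MR fl / fl, LysM cre. LysM Cre is expressed from the lysozyme M gene, which is active in macrophages and neutrophils, so lymphocytes, mesothelial cells and other cells in such a culture keep the receptor. The sources used here give no age for the mice. This gave 4 groups of 2 arrays: untreated control, treated control, untreated knockout and treated knockout cells. The labels call the 2 samples of a group biological replicates. Each sample was a pool of triplicate experiments, so p-values measure the spread between pools, which may be technical.

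Chemokines are small secreted proteins that draw leukocytes along a gradient through receptors coupled to inhibitory G proteins. They fall into families named after the spacing of the cysteines near their amino end, written CC, CXC and CX3C, and most receptors are named after the family they bind. Macrophages are a major source of them: monocytes follow the ligands of Ccr2 into inflamed tissue, neutrophils those of Cxcr2, and T and NK cells those of Cxcr3. Corticosterone, the main glucocorticoid of mice, binds both the glucocorticoid receptor and, with higher affinity, the mineralocorticoid receptor, and glucocorticoids are known for lowering many inflammatory chemokines in macrophages. The comparisons ask how these genes respond to the hormone in each genotype and how they differ between genotypes in each condition.

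Control untreated replicate 2 stood apart from the other 7 arrays, with a median correlation of 0.916 against 0.995 to 0.996 and a gap between the Actb control probe sets at the 3′ and 5′ ends of 2.18 log2 units against 0.41 to 0.62. Among the 34 genes the replicates of that group differed by a median of 0.98 log2 units and by over 1 unit for 16 genes, whereas the medians of the other 3 groups lay between 0.094 and 0.11. Tests therefore use limma on 7 arrays, in which untreated control cells are 1 array that borrows its spread from the other groups. A gene is called where limma's p-value, adjusted for all 18193 genes (Benjamini-Hochberg), is under 0.05. With all 8 arrays limma called none of the 34 genes in any of the 5 contrasts, against 0.148% of all genes for corticosterone in knockout cells, 0.17% in control cells and 0% in the other 3, and the genes called with 7 then had adjusted p-values between 0.177 and 1. At an unadjusted p under 0.05 the 8 arrays gave 9 of the 34 genes for corticosterone in knockout cells (4.6% of all genes) and 12 for corticosterone in control cells (8.55%). For knockout against control they gave 3 with hormone (1.26% of all genes) and 9 without (4.44%), and for the interaction 2 (1.09%). With array weights on the 8 arrays, limma called 16, 0, 7, 0 and 0 of the 34 genes in the same order, against 10.8%, 0.0385%, 1.45%, 0% and 0% of all genes. The estimates for corticosterone in knockout cells and for knockout against control with corticosterone use no untreated control array and are the same numbers in both fits. For the other contrasts the estimate with 8 arrays stands beside each called difference of the 34 genes. Values are listed with replicate 1 first, so the second value of untreated control cells is always the array that stands apart.

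The macrophage transcripts Csf1r, at 13.52 to 13.59, and Lyz2, at 13.58 to 13.78, were high on all 8 arrays. The mean of 8 macrophage markers, these among them, was 11.41 on control untreated replicate 2 and 12.11 to 12.29 on the other 7 arrays. On those 7, Marco read 10.33 to 10.50 in control and 11.07 to 11.30 in knockout cells. Itgam read 8.98 to 9.08 without hormone and 8.49 to 8.71 with it. Nr3c2, the deleted gene, read 6.39 and 8.46 in untreated control cells, 6.39 and 6.13 in treated control cells, 5.54 and 5.82 in untreated knockout cells and 5.11 and 5.47 in treated knockout cells. Every knockout array lay below every control array. In knockout against control cells Nr3c2 fell by 0.97 log2 units on the treated arrays (SE 0.18, adjusted p = 0.0290), and on the untreated arrays the difference was -0.71 (SE 0.21, adjusted p = 0.161; -1.75 with 8 arrays). The position of its probe set on the floxed gene is not known here, and probes beyond the deleted stretch say nothing on the deletion. Markers of other cells were also present and moved with the hormone. Of 8 B cell markers 7 fell in each genotype, of 10 T and NK cell markers 4 fell in control and 5 in knockout cells, and the monocyte marker Plac8 fell in both. Of all genes 5.95% fell in control and 7.95% in knockout cells. The mean of the B cell list was 7.67 and 6.81 in untreated control cells and 7.97 to 8.10 in untreated knockout cells. It was 6.52 to 6.72 on the 4 treated arrays. The mean of the T and NK cell list was 5.02 to 5.25 without hormone and 4.24 to 4.33 with it, and the NK cell marker Ncr1 stayed between 3.07 and 3.38 on all 8 arrays. In RNA from whole cultures fewer cells of a type and less RNA per cell cannot be told apart.

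**Figure D1:**
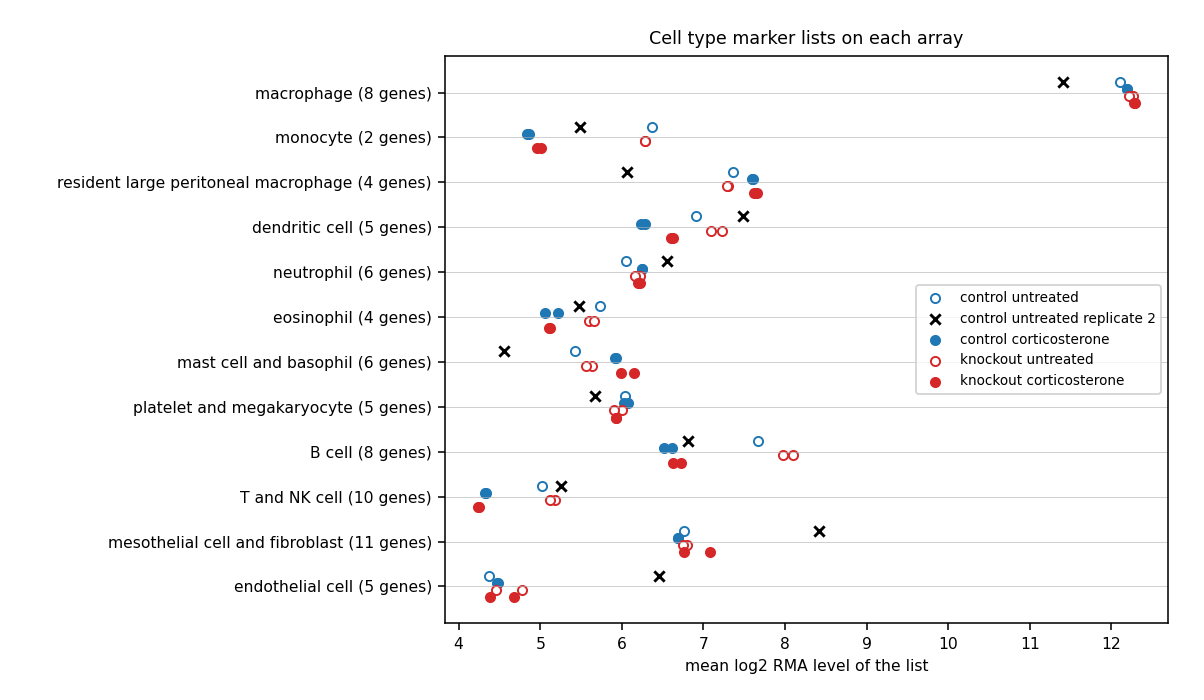
Mean log2 RMA level of each cell type marker list (vertical axis, with the number of genes measured) on each of the 8 arrays, open symbols untreated and filled symbols with corticosterone, blue control and red knockout, with a cross for control untreated replicate 2. The B cell, T and NK cell and monocyte lists lie lower on all treated arrays than on the untreated arrays of the 7 used for testing. The mesothelial and fibroblast list is at 8.42 on control untreated replicate 2 against 6.68 to 7.09 elsewhere. Its fibroblast genes are higher there than on replicate 1, while the mesothelial genes Msln, Upk3b, Krt19 and Lrrn4 are lower and Wt1 is higher.

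Corticosterone moved chemokine genes in both directions and in much the same way in the 2 genotypes. In knockout cells 17 of the 34 genes were called, where 13.7% of all genes were called. Of these 7 were higher and 10 lower, against 5.75% and 7.95% of all genes. In control cells 17 were called, where 10.8% of all genes were called. Of these 9 were higher and 8 lower, against 4.85% and 5.95% of all genes. The genes that rose in both were the monocyte attractants Ccl2 and Ccl7, Ccl3, Ccl17, Pf4 and the receptors Cxcr3 and Cxcr4. The genes that fell in both were Ccl5, Ccl6, Ccl9, Cxcl5, Cxcl14 and the receptors Ccr1, Ccr2 and Ccr7. These 15 are 88.2% of either list, and the share of all genes called in both is not given here. The 2 responses share no array, but limma uses 1 spread per gene for all groups, so their calls are not independent. Cxcr2 and Cx3cr1 were called lower in knockout cells alone and Ccl4 and Cxcl16 higher in control cells alone. The median log2 change of the 34 genes was -0.10 in knockout and 0.0057 in control cells, against -0.019 and -0.0047 over all genes. Among the ligands 5 rose and 5 fell of 26 in knockout cells, and 7 rose and 5 fell in control cells. Among the 8 receptors 2 rose and 5 fell in knockout cells, and 2 rose and 3 fell in control cells. The counts ran from 14 to 18 in knockout and from 13 to 25 in control cells as each of the 7 arrays was left out, the 25 with the array that stands apart as the only untreated control, where 64.2% of all genes were called. Without the variance trend 12 genes were called in each genotype, against 7.09% of all genes in knockout and 4.69% in control cells. The calls then lost were those of Ccl3, Ccl9, Ccr7, Cxcr2 and Cx3cr1 in knockout cells (adjusted p = 0.0683 to 0.0874) and of Ccl5, Ccl9, Ccl17, Ccr7 and Cxcr4 in control cells (adjusted p = 0.0623 to 0.113).

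**Figure D2:**
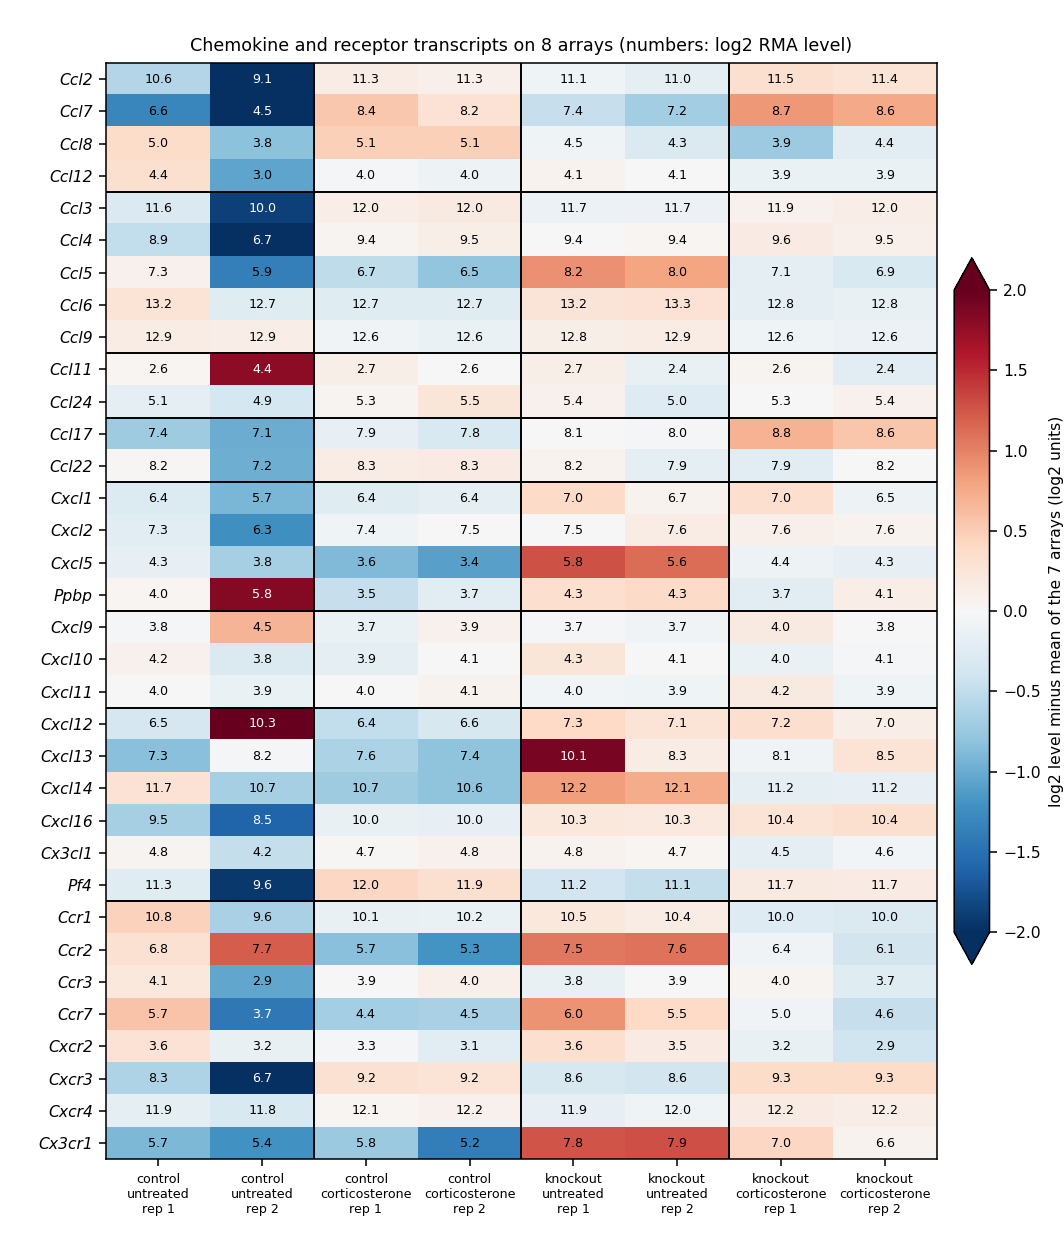
Level of the 34 genes (vertical axis, grouped by role) on each of the 8 arrays (horizontal axis); the number in each cell is the log2 RMA level and the colour its difference from the gene's mean over 7 arrays. The column of control untreated replicate 2 departs from its replicate in both directions, up for Cxcl12 at 10.3 and down for Ccl7 at 4.5, and Cx3cr1 reads 7.8 and 7.9 in untreated knockout cells against 5.2 to 5.8 on the control arrays.

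**Figure D3:**
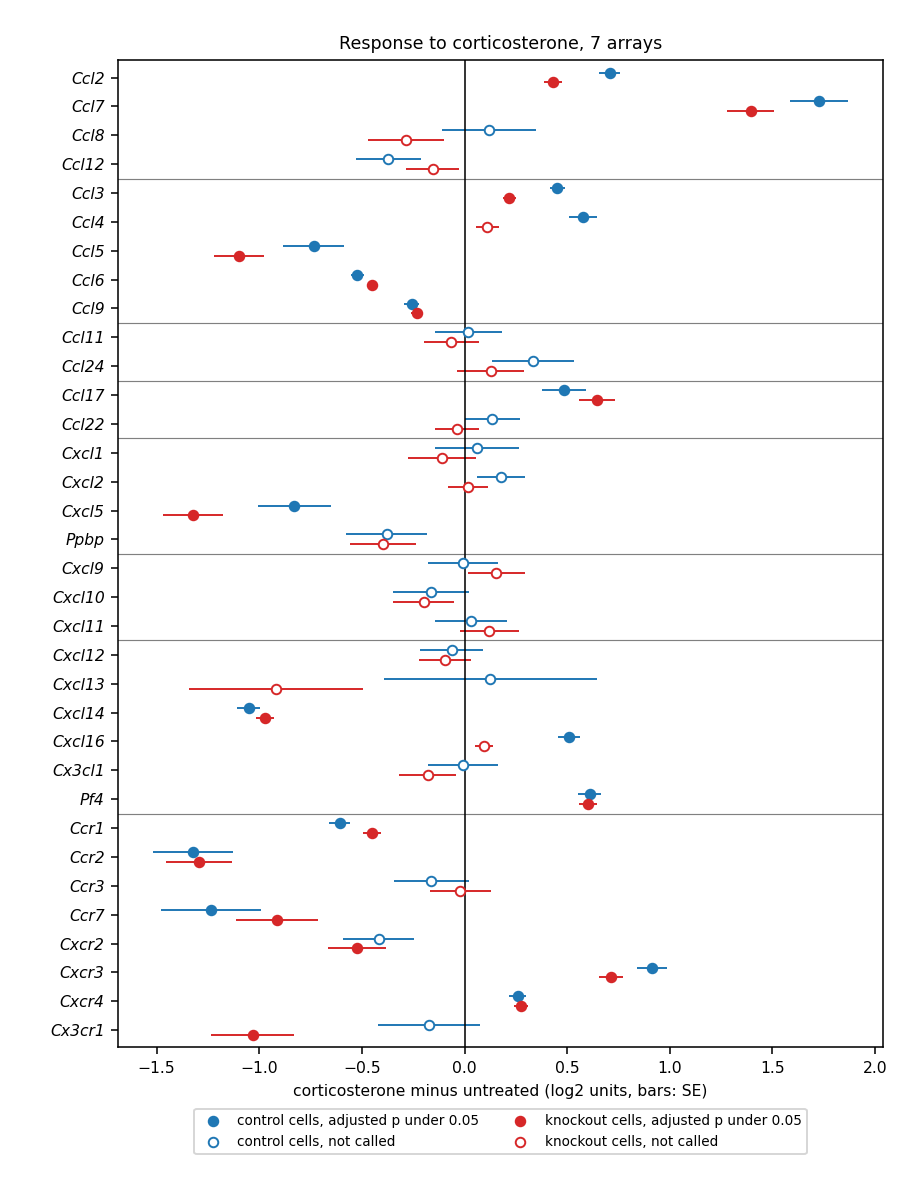
Difference of corticosterone minus untreated (horizontal axis, log2 units, points with bars of 1 SE from limma on 7 arrays) for each of the 34 genes in control and in knockout cells; filled points have an adjusted p under 0.05. Ccl7 has the widest increase in both genotypes, at 1.73 and 1.39, and Ccr2 stands at -1.32 and -1.29, while Cx3cr1 stands at -1.03 in knockout and -0.17 in control cells.

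Between genotypes nearly all called genes were higher in knockout cells. With corticosterone 8 of the 34 were called, where 1.63% of all genes were called (1.29% higher and 0.335% lower): Ccl17, Cxcl5, Cxcl12, Cxcl14, Cxcl16, Ccr2 and Cx3cr1 were higher and Ccl8 was lower. Without hormone 11 were called, where 1.99% of all genes were called (1.43% higher and 0.555% lower): Ccl2, Ccl3, Ccl4, Ccl5, Ccl7, Ccl17, Cxcl5, Cxcl14, Cxcl16 and Cx3cr1 were higher and Ccr1 was lower. Ccl17, Cxcl5, Cxcl14, Cxcl16 and Cx3cr1 were called in both conditions, and the share of all genes called in both is not given here. The 2 conditions share no array but share the spread that limma uses for each gene. The median difference of the 34 genes was 0.078 with and 0.14 without hormone, against 0.00014 and 0.013 over all genes. Centring each array on its median moved the median of all genes by -0.12 without hormone, and 7 of the 11 calls then stood, those of Ccl2, Ccl3, Ccl5 and Ccl7 being lost. Without the variance trend 2 genes were called in each condition, Ccl17 and Cxcl16 with hormone (0.473% of all genes) and Cxcl5 and Cxcl16 without (0.357%). As each of the 7 arrays was left out the counts ran from 3 to 11 with hormone and from 7 to 27 without, the 27 again with the array that stands apart as the only untreated control, where 64.4% of all genes were called. The genotype difference without hormone shares its arrays with the hormone responses, so a value on control untreated replicate 1 enters both.

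**Figure D4:**
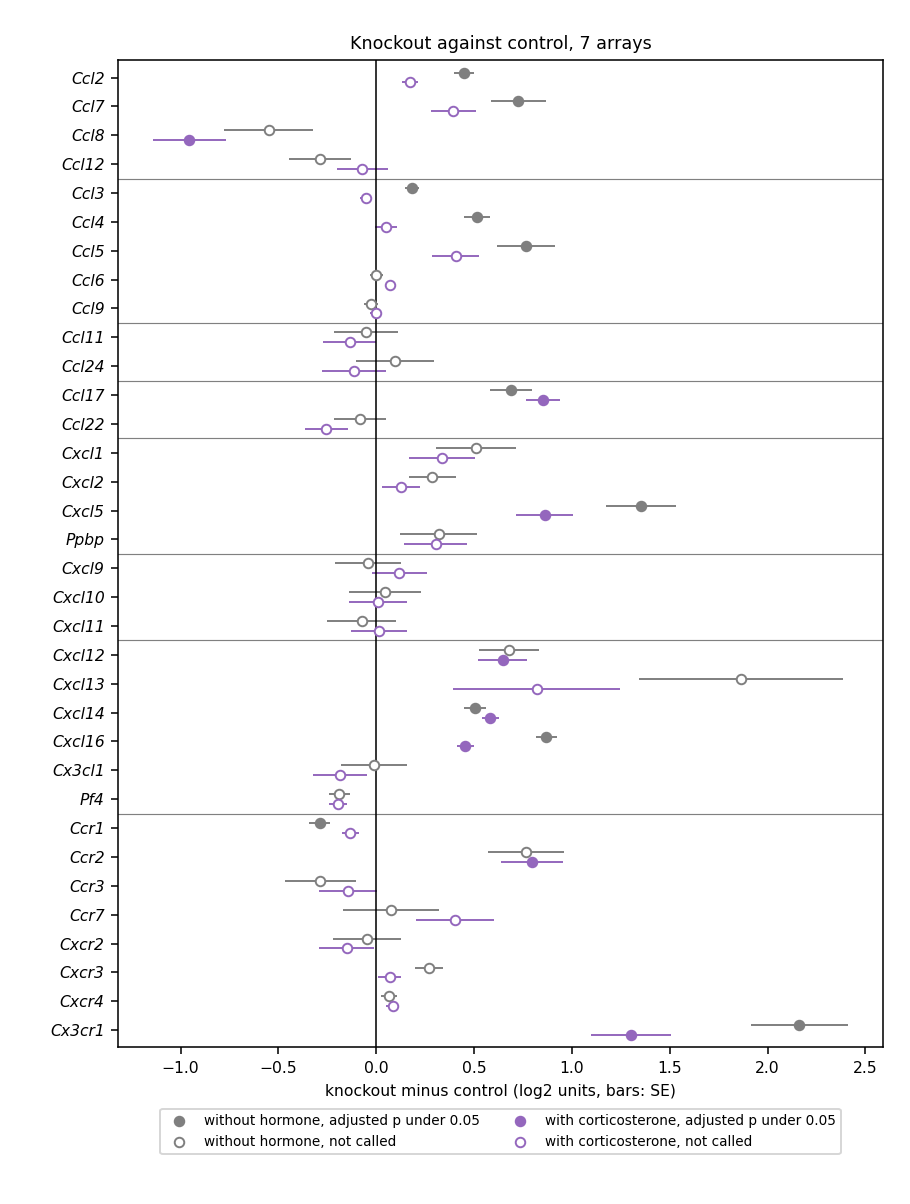
Difference of knockout minus control (horizontal axis, log2 units, points with bars of 1 SE from limma on 7 arrays) for each of the 34 genes without hormone and with corticosterone; filled points have an adjusted p under 0.05. Cx3cr1 stands furthest to the right in both conditions, at 2.16 and 1.30, and of the called genes Ccl8 and Ccr1 alone lie to the left.

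Promoters were available for 24 of the 34 genes from RefSeq (build GRCm38.p6, 250 bases before to 50 bases after the start). Those of Cx3cr1, Ccr2 and Cxcl14, whose levels differed widely with hormone or genotype, and of the neighbours Ccl3, Ccl6 and Ccl9, which moved in opposite directions, are shown as the 250 bases before the start. They lie at chr9:120068297-120068546 on the minus strand, chr9:124101933-124102182 on the plus strand, chr13:56296552-56296801 on the minus strand, chr11:83649379-83649628 on the minus strand, chr11:83593088-83593337 on the minus strand and chr11:83578637-83578886 on the minus strand, in this order. Each reads 5′ to 3′ along its gene, and capitals mark the matches to the motifs described after them.
Cx3cr1: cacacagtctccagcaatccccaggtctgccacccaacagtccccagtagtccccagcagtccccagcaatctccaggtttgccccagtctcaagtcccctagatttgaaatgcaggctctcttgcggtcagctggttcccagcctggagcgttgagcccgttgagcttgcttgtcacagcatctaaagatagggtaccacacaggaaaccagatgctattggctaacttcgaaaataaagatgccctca
Ccr2: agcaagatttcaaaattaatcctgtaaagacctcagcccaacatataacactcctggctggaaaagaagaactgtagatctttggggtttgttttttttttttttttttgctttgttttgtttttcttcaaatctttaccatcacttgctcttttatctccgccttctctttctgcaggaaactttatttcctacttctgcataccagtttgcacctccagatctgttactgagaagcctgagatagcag
Cxcl14: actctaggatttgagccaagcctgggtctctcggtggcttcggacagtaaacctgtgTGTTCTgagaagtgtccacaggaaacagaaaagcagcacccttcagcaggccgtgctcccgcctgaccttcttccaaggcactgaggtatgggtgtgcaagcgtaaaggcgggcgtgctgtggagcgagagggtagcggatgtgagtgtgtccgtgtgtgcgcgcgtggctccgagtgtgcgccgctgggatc
Ccl3: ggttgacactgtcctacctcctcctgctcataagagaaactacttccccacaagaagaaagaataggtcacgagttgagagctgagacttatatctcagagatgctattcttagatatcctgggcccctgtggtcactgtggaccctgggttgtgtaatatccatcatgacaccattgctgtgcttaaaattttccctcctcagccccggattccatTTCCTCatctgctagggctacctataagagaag
Ccl6: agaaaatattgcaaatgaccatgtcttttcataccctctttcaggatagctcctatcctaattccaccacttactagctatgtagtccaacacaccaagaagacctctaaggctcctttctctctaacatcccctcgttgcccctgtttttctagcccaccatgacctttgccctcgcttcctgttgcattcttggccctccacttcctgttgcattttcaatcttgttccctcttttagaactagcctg
Ccl9: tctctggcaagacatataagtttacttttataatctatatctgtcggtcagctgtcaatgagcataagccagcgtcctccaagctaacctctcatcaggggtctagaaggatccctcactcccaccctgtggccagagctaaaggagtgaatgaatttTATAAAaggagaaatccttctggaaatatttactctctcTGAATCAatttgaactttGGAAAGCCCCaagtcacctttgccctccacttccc

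The motifs were searched on both strands in all 300 bases, apart from the TATA box, TATAAA, which was searched on the gene's strand. The full glucocorticoid response element, here AGAACA, any 3 bases and TGTTCT, the palindrome that both steroid receptors bind, was in none of the 24 promoters and in 0.00913% of the 32851 promoters of the table. Its half-site AGAACA, which is part of the full element, was in 6 of the 24 (25.0%), among them Cxcl14, against 19.0% of all promoters. The NF-kB motif was in 5 of the 24 (20.8%), those of Ccl9, Ccr3, Cxcl1, Cxcl2 and Cxcl10, against 4.51%. The AP-1 motif TGANTCA was in 5 (20.8%), Ccl9 among them, against 7.81%. The core of the site of PU.1, the master regulator of myeloid cells, GAGGAA, was in 11 (45.8%), Ccl3 among them, against 28.3%. The TATA box was in 8 (33.3%) against 8.32%. Cx3cr1, Ccr2 and Ccl6 had no match to any of these letters. A match is a description of the sequence and does not show binding, and no match says only that the letters are not in the window. Of the 15 genes called with hormone in both genotypes, promoters were at hand for Ccl3, Ccl6, Ccl9, Ccl17, Cxcl14, Pf4, Ccr1, Ccr2, Cxcr3 and Cxcr4. Of these the half-site was in Cxcl14, which fell, and in Cxcr4, which rose.

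Of the monocyte attractants, Ccl2 and Ccl7 rose with the hormone, and Ccl8 and Ccl12 were not called for it. Ccl2, the ligand of Ccr2 that calls monocytes out of the marrow and into tissue, read 10.58 and 9.06 in untreated control cells, 11.30 and 11.27 in treated control cells, 11.08 and 10.97 in untreated knockout cells and 11.48 and 11.44 in treated knockout cells. Both treated arrays lay above the untreated arrays in each genotype. Ccl2 rose by 0.71 log2 units in control cells (SE 0.052, adjusted p = 3.05e-05; 1.47 with 8 arrays) and by 0.43 in knockout cells (SE 0.042, adjusted p = 0.000118). Ccl7, which shares this receptor, read 6.57 and 4.48 in untreated control cells, 8.42 and 8.17 in treated control cells, 7.41 and 7.18 in untreated knockout cells and 8.74 and 8.64 in treated knockout cells. Its groups were ordered like those of Ccl2 and lay further apart. Ccl7 rose by 1.73 in control (SE 0.14, adjusted p = 6.46e-05; 2.77 with 8 arrays) and by 1.39 in knockout cells (SE 0.12, adjusted p = 4.19e-05), the widest increases among the 34 genes. Without hormone both were higher in knockout cells, Ccl2 by 0.45 (SE 0.052, adjusted p = 0.00221; 1.21 with 8 arrays) and Ccl7 by 0.72 (SE 0.14, adjusted p = 0.0355; 1.77 with 8 arrays). The Ccl7 call was lost without any one of the 4 treated arrays (adjusted p = 0.0608 to 0.08), and with only the arrays compared (adjusted p = 0.193). With hormone the genotypes differed by 0.17 for Ccl2 and 0.39 for Ccl7, which did not pass (adjusted p = 0.111 and 0.212). Ccl8, grouped with these genes as a monocyte chemotactic protein, read 4.97 and 3.78 in untreated control cells, 5.09 and 5.09 in treated control cells, 4.52 and 4.32 in untreated knockout cells and 3.88 and 4.39 in treated knockout cells. All 4 knockout arrays lay below the 3 control arrays other than control untreated replicate 2. With hormone Ccl8 fell by 0.96 in knockout against control cells (SE 0.19, adjusted p = 0.0412), a call lost without control corticosterone replicate 1 (adjusted p = 0.321), control corticosterone replicate 2 (adjusted p = 0.328) or without replicate 1 of the treated knockout cells (adjusted p = 0.281). Ccl12, the other member of the group, lay at 3.93 to 4.38 on 7 arrays and was called in no contrast. With hormone its difference was -0.37 in control cells (adjusted p = 0.209) and -0.16 in knockout cells (adjusted p = 0.547). That of Ccl8 was 0.12 in control cells (adjusted p = 0.844) and -0.29 in knockout cells (adjusted p = 0.408). With 8 arrays the control differences were 0.31 for Ccl12 and 0.71 for Ccl8.

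A further group of CC ligands, which attract monocytes, macrophages and T cells, split by the hormone. Ccl3 and Ccl4, the macrophage inflammatory proteins made by activated macrophages, went up where called, and Ccl5, Ccl6 and Ccl9 went down in both genotypes. Ccl3 read 11.55 and 9.98 in untreated control cells, 11.99 and 12.03 in treated control cells, 11.73 and 11.74 in untreated knockout cells and 11.93 and 11.97 in treated knockout cells. The untreated arrays lay below the treated arrays in each genotype. Ccl3 rose by 0.45 in control cells (SE 0.037, adjusted p = 6.7e-05; 1.24 with 8 arrays) and by 0.22 in knockout cells (SE 0.03, adjusted p = 0.00114). Ccl4 read 8.90 and 6.70 in untreated control cells, 9.44 and 9.51 in treated control cells, 9.39 and 9.43 in untreated knockout cells and 9.56 and 9.49 in treated knockout cells, and all arrays but the untreated control arrays lay within a narrow band. Ccl4 rose by 0.58 in control cells (SE 0.068, adjusted p = 0.000528; 1.68 with 8 arrays), and its difference in knockout cells was 0.11 (adjusted p = 0.265). Without hormone Ccl4 was higher in knockout cells by 0.52 (SE 0.068, adjusted p = 0.0048; 1.61 with 8 arrays) and Ccl3 by 0.18 (SE 0.037, adjusted p = 0.0447; 0.97 with 8 arrays). The Ccl4 call was lost with only the arrays compared (adjusted p = 0.0688). The Ccl3 call was lost without knockout untreated replicate 2 (adjusted p = 0.063), without any one of the 4 treated arrays (adjusted p = 0.0894 to 0.103) and with only the arrays compared (adjusted p = 0.286).

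Ccl5, known as RANTES and made by T and NK cells as well as macrophages, read 7.33 and 5.88 in untreated control cells, 6.74 and 6.45 in treated control cells, 8.16 and 8.03 in untreated knockout cells and 7.05 and 6.95 in treated knockout cells. Treated arrays lay below untreated arrays in knockout cells, while in control cells control untreated replicate 2 lay below the treated ones. Ccl5 fell by 1.10 in knockout cells (SE 0.12, adjusted p = 0.000264) and fell by 0.74 in control cells (SE 0.15, adjusted p = 0.0119; -0.013 with 8 arrays). The call in control cells was lost once replicate 2 of the treated control cells was dropped (adjusted p = 0.0814), and with control untreated replicate 2 as the only untreated array the difference turned to 0.71 (adjusted p = 0.00279). The list of T and NK cell markers was lower on the treated arrays too, and its part in the fall of Ccl5 was not tested. Without hormone Ccl5 was higher in knockout cells by 0.77 (SE 0.15, adjusted p = 0.0354; 1.49 with 8 arrays), a call lost without any one of the 4 treated arrays (adjusted p = 0.0565 to 0.0629) or with only the arrays compared (adjusted p = 0.0725). Ccl6, a chemokine that macrophages make in large amounts, read 13.25 and 12.72 in untreated control cells, 12.73 and 12.72 in treated control cells, 13.23 and 13.26 in untreated knockout cells and 12.77 and 12.83 in treated knockout cells. Apart from control untreated replicate 2, the untreated arrays lay above the treated arrays in both genotypes. Ccl6 fell by 0.52 in control cells (SE 0.032, adjusted p = 1.08e-05; -0.26 with 8 arrays) and fell by 0.45 in knockout cells (SE 0.026, adjusted p = 4.95e-06). With control untreated replicate 2 as the only untreated array the control difference was 0.0051 (adjusted p = 0.905). Ccl9, a macrophage ligand of Ccr1, read 12.87 and 12.85 in untreated control cells, 12.65 and 12.58 in treated control cells, 12.82 and 12.86 in untreated knockout cells and 12.62 and 12.60 in treated knockout cells, with the treated arrays lower in both genotypes. Ccl9 fell by 0.26 in control cells (SE 0.036, adjusted p = 0.00149; -0.25 with 8 arrays) and fell by 0.23 in knockout cells (SE 0.029, adjusted p = 0.000658), and centring each array on its median ended the latter call (adjusted p = 0.0664). A second probe set of each gene moved the same way, by -0.81 and -0.86 for Ccl6 and by -0.48 and -0.61 for Ccl9 in knockout and control cells. Neither Ccl6 nor Ccl9 was called between genotypes.

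Genes next to each other did not all move alike. Ccl2, Ccl7, Ccl11, Ccl12 and Ccl8 lie in this order on chromosome 11 with 0 other protein-coding genes between them, and 2 of these 5 rose with the hormone in each genotype. Further along, past 26 other protein-coding genes, Ccl5, Ccl9, Ccl6, Ccl3 and Ccl4 lie side by side. Of these Ccl5, Ccl9 and Ccl6 fell in both genotypes, while Ccl3 rose in both and Ccl4 rose in control cells. On chromosome 5 Cxcl5, Ppbp and Pf4 are adjacent: Cxcl5 fell and Pf4 rose in both genotypes, and Ppbp was not called. On chromosome 8 Ccl22, Cx3cl1 and Ccl17 are adjacent, and of these Ccl17 alone was called. On chromosome 9 Ccr1, Ccr3 and Ccr2 lie close together, with 1 other protein-coding gene between the first and the second of them. Ccr1 and Ccr2 fell in both genotypes and Ccr3 was not called.

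Of the ligands of Ccr4, a receptor of Th2 and regulatory T cells, Ccl17 moved with hormone and genotype. Ccl17, also called TARC, read 7.37 and 7.10 in untreated control cells, 7.92 and 7.79 in treated control cells, 8.08 and 8.04 in untreated knockout cells and 8.78 and 8.64 in treated knockout cells. The 4 groups did not overlap, with untreated control cells lowest and treated knockout cells highest. Ccl17 rose by 0.48 in control cells (SE 0.11, adjusted p = 0.0191; 0.62 with 8 arrays) and by 0.65 in knockout cells (SE 0.087, adjusted p = 0.000918). The call in control cells was lost once replicate 1 of the treated control cells was dropped (adjusted p = 0.13) or replicate 2 (adjusted p = 0.0537). In knockout against control cells Ccl17 was higher by 0.85 with hormone (SE 0.087, adjusted p = 0.000958) and by 0.69 without (SE 0.11, adjusted p = 0.0127; 0.82 with 8 arrays). With only the arrays compared the difference without hormone was not called (adjusted p = 0.0904). Ccl22, the macrophage and dendritic cell ligand of the same receptor, lay at 7.93 to 8.30 on 7 arrays and was called in no contrast, with knockout minus control at -0.26 with hormone (adjusted p = 0.483). Dendritic cells also make both ligands. The mean of 5 dendritic cell markers was 6.91 and 7.48 in untreated control cells, 6.23 to 6.28 in treated control cells, 7.09 to 7.23 in untreated knockout cells and 6.60 to 6.63 in treated knockout cells. It was lower on the treated arrays of each genotype, and none of the 5 was called between genotypes by limma in either condition, with 3 at an unadjusted p under 0.05 with hormone and 1 without. In knockout cells 2 of the 5 fell with hormone and 1, Flt3, rose, against 7.95% and 5.75% of all genes. The part of dendritic cells in the values of Ccl17 was not tested. The eotaxins Ccl11 and Ccl24, which attract eosinophils through Ccr3, were called in no contrast. Ccl11 lay at 2.36 to 2.69 on 7 arrays and at 4.36 on control untreated replicate 2, and Ccl24 lay at 4.92 to 5.52 on all 8.

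Of the 4 ligands of Cxcr2, which draw neutrophils, Cxcl5 was called. Cxcl5, also known as LIX, read 4.33 and 3.81 in untreated control cells, 3.60 and 3.40 in treated control cells, 5.75 and 5.60 in untreated knockout cells and 4.39 and 4.33 in treated knockout cells. Untreated knockout cells were highest and treated control cells lowest, and treated knockout cells read about as high as control untreated replicate 1. Cxcl5 fell by 1.32 with hormone in knockout cells (SE 0.15, adjusted p = 0.000258) and fell by 0.83 in control cells (SE 0.18, adjusted p = 0.0165; -0.57 with 8 arrays). The control call was lost once replicate 2 of the treated control cells was dropped (adjusted p = 0.109) or with control untreated replicate 2 as the only untreated array (adjusted p = 0.145). In knockout against control cells Cxcl5 was higher by 1.35 without hormone (SE 0.18, adjusted p = 0.0048; 1.61 with 8 arrays) and by 0.86 with it (SE 0.15, adjusted p = 0.0198). The latter was not called without control corticosterone replicate 1 or 2 (adjusted p = 0.113 and 0.255) or without replicate 1 or 2 of the treated knockout cells (adjusted p = 0.167 and 0.092). Cxcl1 and Cxcl2, the acute neutrophil attractants of macrophages, were called in no contrast. Cxcl1 lay at 6.35 to 7.02 and Cxcl2 at 7.28 to 7.65 on 7 arrays. All 4 knockout arrays of Cxcl1 lay above its control arrays. Without hormone knockout minus control was 0.51 for Cxcl1 and 0.29 for Cxcl2, and with 8 arrays 0.83 and 0.79. Further probe sets of Cxcl1 gave 0.88 and 0.79 on 7 arrays. Ppbp, the platelet basic protein, lay at 3.49 to 4.34 and read 5.79 on control untreated replicate 2. Ppbp was called in no contrast, and neither was any of 5 platelet markers in any of the 5 contrasts. The ligands of Cxcr3, Cxcl9, Cxcl10 and Cxcl11, which interferons induce, lay between 3.66 and 4.34 on 7 arrays, and none was called. Cxcl11 is listed in the same RefSeq table as a transcribed pseudogene.

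Cxcl14 and Cxcl16 carried the clearest genotype differences among the other ligands. Cxcl14, a chemokine made by many tissues that acts on monocytes and dendritic cells, read 11.67 and 10.71 in untreated control cells, 10.67 and 10.57 in treated control cells, 12.22 and 12.13 in untreated knockout cells and 11.18 and 11.22 in treated knockout cells. Apart from control untreated replicate 2 the groups ran from untreated knockout over untreated control and treated knockout to treated control cells, without overlap. With hormone Cxcl14 fell by 1.05 in control cells (SE 0.056, adjusted p = 3.85e-06; -0.57 with 8 arrays) and fell by 0.97 in knockout cells (SE 0.045, adjusted p = 1.17e-06). With control untreated replicate 2 as the only untreated array the control difference was -0.092 (adjusted p = 0.188). In knockout against control cells Cxcl14 was higher by 0.58 with hormone (SE 0.045, adjusted p = 0.000159) and by 0.50 without (SE 0.056, adjusted p = 0.00177; 0.98 with 8 arrays). Its second probe set gave 0.61 and 0.56 for these, and -1.18 and -1.13 for the hormone in control and knockout cells. Cxcl16, a membrane-bound chemokine that also takes up oxidised lipoproteins, read 9.45 and 8.53 in untreated control cells, 9.97 and 9.95 in treated control cells, 10.33 and 10.31 in untreated knockout cells and 10.39 and 10.45 in treated knockout cells. All 4 knockout arrays lay above all control arrays. Cxcl16 was higher in knockout cells by 0.87 without (SE 0.053, adjusted p = 3.98e-05; 1.33 with 8 arrays) and by 0.45 with hormone (SE 0.044, adjusted p = 0.000648), and its second probe set gave 0.80 and 0.41. With hormone Cxcl16 rose by 0.51 in control cells (SE 0.053, adjusted p = 0.000267; 0.97 with 8 arrays), and in knockout cells the difference was 0.10 (adjusted p = 0.214).

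Cxcl12, the ligand of Cxcr4 that stromal cells make to hold stem cells and lymphocytes in place, read 6.52 and 10.27 in untreated control cells, 6.37 and 6.55 in treated control cells, 7.27 and 7.14 in untreated knockout cells and 7.21 and 7.0 in treated knockout cells. The array that stands apart was over 3 log2 units above all others, and of the rest the 4 knockout arrays lay above the 3 control arrays. Cxcl12 was higher in knockout cells with hormone by 0.65 (SE 0.12, adjusted p = 0.04) and by 0.68 without (SE 0.15, adjusted p = 0.0658; -1.20 with 8 arrays), which did not pass. The first was not called without control corticosterone replicate 1 or 2 (adjusted p = 0.385 and 0.183), without replicate 1 or 2 of the treated knockout cells (adjusted p = 0.327 and 0.0782), with array medians centred (adjusted p = 0.0653) or when its probe sets were averaged (0.30, adjusted p = 0.433). Its 2 other probe sets gave 0.30 and -0.052 with hormone. Mesothelial cells and fibroblasts also make Cxcl12. The mean of their 11 markers was 8.42 on control untreated replicate 2, 6.68 to 6.76 on the other control arrays and 6.76 to 7.09 on the knockout arrays. On control untreated replicate 2 the fibroblast markers Col1a1, Col1a2, Col3a1, Dcn, Lum and Pdgfra were higher than on replicate 1. Of the mesothelial markers Wt1 was higher there, and Msln, Upk3b, Krt19 and Lrrn4 were lower. The part of these cells in the Cxcl12 difference was not tested. Cxcl13, the B cell attractant of body cavity macrophages, read 7.35 and 8.17 in untreated control cells, 7.56 and 7.38 in treated control cells, 10.08 and 8.34 in untreated knockout cells and 8.12 and 8.46 in treated knockout cells. Knockout untreated replicate 1 stood well above replicate 2. Cxcl13 was called in no contrast on 7 arrays, with knockout minus control at 1.86 without hormone (SE 0.52, adjusted p = 0.13; 1.45 with 8 arrays). Pf4, platelet factor 4, which macrophages also make, read 11.31 and 9.61 in untreated control cells, 11.97 and 11.87 in treated control cells, 11.17 and 11.07 in untreated knockout cells and 11.73 and 11.71 in treated knockout cells. The treated arrays lay above the untreated arrays in each genotype. Pf4 rose by 0.61 in control cells (SE 0.055, adjusted p = 0.000105; 1.46 with 8 arrays) and by 0.60 in knockout cells (SE 0.045, adjusted p = 2.2e-05). The mean of 5 platelet markers stayed between 5.91 and 6.08 on 7 arrays, but the markers moved in both directions. With hormone in knockout cells they ran from -0.51 to 0.32, with 2 at an unadjusted limma p under 0.05 (24.9% of all genes). The part of platelets in the rise of Pf4 was not tested. Cx3cl1, fractalkine, the ligand of Cx3cr1, lay at 4.50 to 4.79 on 7 arrays and at 4.23 on control untreated replicate 2, and was called in no contrast.

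Among the receptors, Cx3cr1 showed the widest genotype difference of the 34 genes. Cx3cr1, the fractalkine receptor of patrolling monocytes and many tissue macrophages, read 5.69 and 5.37 in untreated control cells, 5.83 and 5.20 in treated control cells, 7.83 and 7.87 in untreated knockout cells and 6.99 and 6.64 in treated knockout cells. Every knockout array lay above every control array, and in knockout cells the treated arrays lay below the untreated ones. Without hormone Cx3cr1 was higher in knockout cells by 2.16 (SE 0.25, adjusted p = 0.0022; 2.32 with 8 arrays), and with hormone by 1.30 (SE 0.20, adjusted p = 0.0126). The latter call was lost once replicate 2 of the treated control cells was dropped (adjusted p = 0.107) or without replicate 1 of the treated knockout cells (adjusted p = 0.118). Corticosterone lowered it in knockout cells, where Cx3cr1 fell by 1.03 (SE 0.20, adjusted p = 0.00809), a call lost when leaving out knockout corticosterone replicate 2 (adjusted p = 0.0688). In control cells the difference was -0.17 (SE 0.25, adjusted p = 0.778; -0.013 with 8 arrays). The hormone responses of the genotypes differed by -0.86 (95% interval -1.58 to -0.14, adjusted p = 0.83; -1.02 with 8 arrays), which did not pass. A second probe set of Cx3cr1 gave knockout minus control of 0.11 without and 0.12 with hormone, so the difference rests on 1 of its 2 probe sets. The second one read 3.13 to 3.62 on all 8 arrays, near the bottom of the scale. Why the 2 probe sets differ was not tested. Of 4 monocyte markers listed 2 were measured, Plac8 and Treml4, and they were not called between genotypes. Plac8 read 7.8 and 7.6 in untreated control cells and 8.2 and 8.4 in untreated knockout cells. Treml4 was low, at 3.41 to 4.94 on all 8 arrays. The part of monocytes in the Cx3cr1 difference was not tested.

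**Figure D5:**
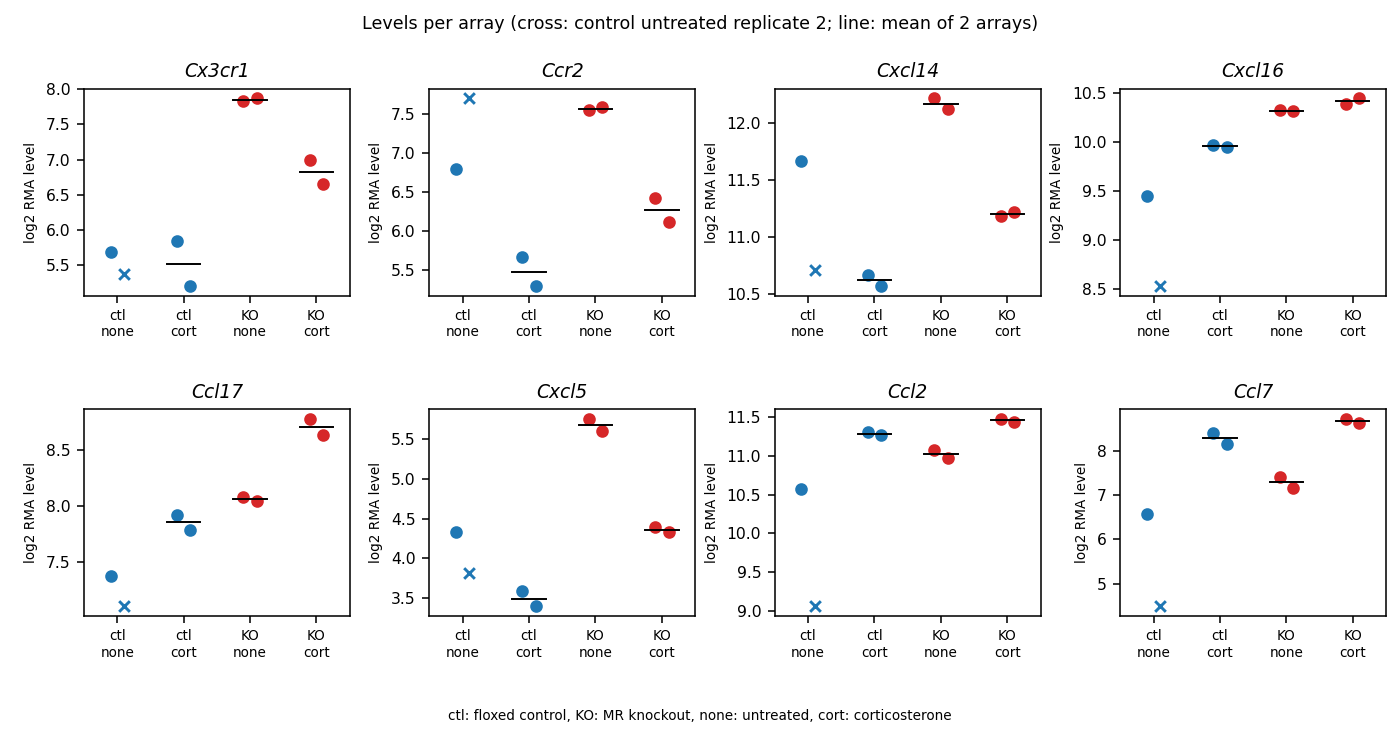
log2 RMA level (vertical axis) of Cx3cr1, Ccr2, Cxcl14, Cxcl16, Ccl17, Cxcl5, Ccl2 and Ccl7 in the 4 groups (horizontal axis), 1 point per array, with a cross for control untreated replicate 2. The knockout arrays of Cx3cr1, at 6.64 to 7.87, all lie above its control arrays, at 5.20 to 5.83, and those of Cxcl16, at 10.31 to 10.45, lie above its control arrays, at 8.53 to 9.97.

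Ccr2, the receptor that brings inflammatory monocytes into tissue and is lost as they mature, read 6.80 and 7.70 in untreated control cells, 5.66 and 5.29 in treated control cells, 7.55 and 7.58 in untreated knockout cells and 6.42 and 6.12 in treated knockout cells. In each genotype the treated arrays lay below the untreated arrays, and in each condition the knockout arrays lay above control arrays, apart from control untreated replicate 2. With hormone Ccr2 fell by 1.32 in control cells (SE 0.19, adjusted p = 0.00198; -1.77 with 8 arrays) and fell by 1.29 in knockout cells (SE 0.16, adjusted p = 0.000503). Its 3 other probe sets gave -0.55, -0.77 and -0.22 in control and -0.22, -0.77 and -0.46 in knockout cells. Their means over the 8 arrays were low, at 3.12 to 3.43. The monocyte marker Plac8 was lower on the treated arrays as well, at 5.90 to 6.18 against 7.56 to 8.36 on the untreated arrays, and its part in the fall of Ccr2 was not tested. With hormone Ccr2 was higher in knockout cells by 0.80 (SE 0.16, adjusted p = 0.0448). This call was lost once replicate 1 or 2 of the treated control cells was dropped (adjusted p = 0.101 and 0.398), without replicate 1 or 2 of the treated knockout cells (adjusted p = 0.343 and 0.0609), with control untreated replicate 2 in place of replicate 1 (adjusted p = 0.0513) and when its probe sets were averaged (adjusted p = 0.152). Without hormone the difference was 0.77 (adjusted p = 0.096; 0.32 with 8 arrays). Ccr1, the receptor of Ccl3, Ccl5, Ccl6 and Ccl9, read 10.75 and 9.64 in untreated control cells, 10.13 and 10.15 in treated control cells, 10.49 and 10.43 in untreated knockout cells and 10.03 and 9.99 in treated knockout cells. Control untreated replicate 1 was highest and control untreated replicate 2 lowest, so the order of the control groups turns on that array. Ccr1 fell by 0.61 in control cells (SE 0.053, adjusted p = 8.57e-05; -0.054 with 8 arrays) and fell by 0.45 in knockout cells (SE 0.043, adjusted p = 0.000102). With control untreated replicate 2 as the only untreated array the control difference turned to 0.50 (adjusted p = 2.64e-05). Without hormone Ccr1 fell by 0.29 in knockout against control cells (SE 0.053, adjusted p = 0.0275; 0.26 with 8 arrays), a call lost without knockout untreated replicate 2 (adjusted p = 0.0501), without any one of the 4 treated arrays (adjusted p = 0.0512 to 0.0889) and with only the arrays compared (adjusted p = 0.179).

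Ccr7, which guides dendritic cells and T cells to lymph nodes, read 5.67 and 3.67 in untreated control cells, 4.41 and 4.45 in treated control cells, 5.99 and 5.50 in untreated knockout cells and 5.03 and 4.64 in treated knockout cells. The treated arrays lay below the untreated arrays in each genotype, apart from control untreated replicate 2, which was lowest of all. Ccr7 fell by 1.24 in control cells (SE 0.24, adjusted p = 0.0103; -0.24 with 8 arrays) and fell by 0.91 in knockout cells (SE 0.20, adjusted p = 0.0141). The control call was lost once replicate 1 or 2 of the treated control cells was dropped (adjusted p = 0.0731 and 0.0692), and with control untreated replicate 2 as the only untreated array the difference turned to 0.76 (adjusted p = 0.0216). The knockout call was lost without knockout untreated replicate 1 or without replicate 2 of the treated knockout cells (adjusted p = 0.0523 and 0.115). The T and NK cell and dendritic cell lists were also lower on the treated arrays. In the dendritic cell list Cd209a and Dpp4 were lower on the treated arrays of each genotype and Flt3 was higher. Fscn1 read 11.26 and 11.45 in untreated and 11.41 and 11.19 in treated knockout cells. The part of these cells in the fall of Ccr7 was not tested. Cxcr2, the neutrophil receptor, was near the bottom of the scale and read 3.60 and 3.16 in untreated control cells, 3.27 and 3.08 in treated control cells, 3.64 and 3.46 in untreated knockout cells and 3.15 and 2.90 in treated knockout cells. The treated knockout arrays lay below the untreated knockout arrays, and the control groups overlapped. Cxcr2 fell by 0.52 in knockout cells (SE 0.14, adjusted p = 0.0379), a call lost without control corticosterone replicate 1 or 2 (adjusted p = 0.0656 and 0.0667), knockout untreated replicate 1 (adjusted p = 0.121) or without replicate 2 of the treated knockout cells (adjusted p = 0.249), with only the arrays compared (adjusted p = 0.0653) and with array medians centred (adjusted p = 0.0796). In control cells the difference was -0.42 (adjusted p = 0.191; -0.20 with 8 arrays). Cxcr3, best known on activated T and NK cells, read 8.32 and 6.74 in untreated control cells, 9.25 and 9.22 in treated control cells, 8.61 and 8.57 in untreated knockout cells and 9.30 and 9.30 in treated knockout cells. The treated arrays of both genotypes lay close together, above all untreated arrays. The part of T and NK cells in the values of Cxcr3 was not tested. Cxcr3 rose by 0.91 in control cells (SE 0.072, adjusted p = 4.93e-05; 1.70 with 8 arrays) and by 0.71 in knockout cells (SE 0.059, adjusted p = 4.15e-05), on the arrays where the T and NK cell list was lower. Cxcr4, the receptor of Cxcl12, whose gene glucocorticoids are known to induce in leukocytes, read 11.89 and 11.78 in untreated control cells, 12.13 and 12.18 in treated control cells, 11.92 and 12.00 in untreated knockout cells and 12.25 and 12.22 in treated knockout cells. The treated arrays lay above the untreated arrays in each genotype. Cxcr4 rose by 0.26 in control cells (SE 0.042, adjusted p = 0.00348; 0.32 with 8 arrays) and by 0.28 in knockout cells (SE 0.034, adjusted p = 0.000534). Ccr3, the eosinophil receptor, lay at 3.65 to 4.11 on 7 arrays and was called in no contrast.

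The test of whether the hormone response differed between genotypes called none of the 34 genes with limma on 7 arrays, where 0.0165% of all genes were called, and 6 had an unadjusted p under 0.05 (5.85% of all genes). These were Ccl2, Ccl3, Ccl4, Cxcl16, Ccr1 and Cx3cr1. The response of Cxcl16 in knockout minus that in control cells was -0.41 (95% interval -0.57 to -0.26, adjusted p = 0.316; -0.88 with 8 arrays). For Ccl4 the difference of responses was -0.47 (95% interval -0.67 to -0.27, adjusted p = 0.476; -1.57 with 8 arrays). For Ccl3 and Ccl2 it was -0.23 and -0.28 (adjusted p = 0.532 and 0.804), and with 8 arrays -1.02 and -1.04. All 4 of these ligands were called higher in untreated knockout cells. Each of these differences includes control untreated replicate 1, the single array of its group. Cxcl13 was called (-1.92, SE 0.19, adjusted p = 0.00781) once knockout untreated replicate 2 was left out, which leaves the high replicate 1 as the whole group. With control untreated replicate 2 in place of replicate 1, 26 of the 34 genes were called for the interaction, where 58.7% of all genes were called.

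Other genes of the chemokine system were counted from lists. Of 11 further ligands 9 were measured and none was called by limma in any of the 5 contrasts, with 2 at an unadjusted p under 0.05 for corticosterone in knockout cells and 1 in control cells, against 24.9% and 22.2% of all genes. Of 15 further receptors 13 were measured. With hormone 3 fell in knockout and 2 in control cells, where 7.95% and 5.95% of all genes fell. Cxcr5, the B cell receptor of Cxcl13, fell by 1.23 in knockout (SE 0.14, adjusted p = 0.000318) and fell by 0.79 in control cells (SE 0.17, adjusted p = 0.0177; -0.25 with 8 arrays). B cell markers fell on the same arrays, and their part in the fall of Cxcr5 was not tested. Ccrl2, a receptor that binds without signalling, fell by 0.35 and 0.40 (adjusted p = 0.00778 and 0.0154), and in the 8-array fit its control difference was 0.14. Cxcr6, the receptor of Cxcl16, fell by 0.61 in knockout cells (adjusted p = 0.0220). Of 28 genes of G protein signalling and cell movement below the receptors 26 were measured. In knockout cells 4 rose and 6 fell with hormone, and in control cells 3 rose and 7 fell. Of all genes 5.75% rose and 7.95% fell in knockout cells, and 4.85% rose and 5.95% fell in control cells. Fgr, a Src family kinase of myeloid cells, fell by 2.03 in knockout (SE 0.08, adjusted p = 3.48e-07) and fell by 1.88 in control cells (SE 0.10, adjusted p = 3.85e-06; -1.50 with 8 arrays). Gng2, a G protein gamma subunit, rose by 0.48 in each genotype (adjusted p = 4.08e-05 in knockout and 0.000221 in control cells), with 0.83 in control cells on 8 arrays. Elmo1, a partner of the Rac activator Dock2, rose by 0.50 in control cells and by 0.36 in knockout cells, while Dock2 itself fell by 0.37 and 0.31. With 8 arrays the control differences were 1.37 for Elmo1 and -0.12 for Dock2. Between genotypes none of these 48 genes was called in either condition, where 1.63% of all genes were called with hormone and 1.99% without. At an unadjusted p under 0.05 there were 2 with hormone and 4 without, against 9.82% and 14.3% of all genes, the smallest p being that of Arrb2 with hormone (0.15, adjusted p = 0.245) and of Cxcr5 without (0.76, adjusted p = 0.0681; 1.30 with 8 arrays).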

How the data were processed

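RNA of 4 groups of 2 samples was read on 8 Affymetrix mouse arrays. The deposited values are log2 levels of 45101 probe sets, made by the authors with RMA in R 2.7, per the submitters' processing notes. RMA makes the distributions of the arrays alike, so total RNA per cell cannot be read from them, and it compresses low values. No detection call is given, and the number of arrays limits the precision. Of the probe sets 64 were controls, 34945 had 1 gene, 932 had several and 9160 were not named. Symbols of 34741 were matched to the RefSeq table of GRCm38.p6. Each of 18193 genes was represented by its brightest probe set, judged by the mean of 8 arrays.

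A linear model with a coefficient for each group and a variance trend was run in limma 3.58.1 (R 4.3.3) on 7 arrays without control untreated replicate 2, and checked on simulated data. Residual degrees of freedom were 3, and 4 with all 8 arrays. The limma p-values were adjusted for all genes tested (Benjamini-Hochberg). Alternatives were all 8 arrays without and with array weights, fewer arrays, no trend, the mean of probe sets, centred medians, a minimum mean level of 6 and a replicate block. The genes described, the gene lists, the arrays used for testing and the rule for naming genes (values on every array for genes called in any contrast, and for Cx3cr1) were chosen with earlier results of these data known. Genes of the other chemokine lists are named by the smallest p in a contrast, with up to 3 each; the remaining ones named were chosen after their values were seen.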

Additional observations from a re-analysis of the deposited data

How the results depend on the processing

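Counts of called genes among the 34 depended most on control untreated replicate 2. With all 8 arrays they were 0 in place of 17 for corticosterone in each genotype, 0 in place of 8 and 11 for knockout against control with and without hormone, and 0 for the interaction. With array weights they were 0 for corticosterone in control cells and 0 for knockout against control without hormone. For knockout against control the counts without the variance trend were 2 with and 2 without hormone, and without hormone 5 with only the arrays compared and 7 with centred medians. The labels give same-numbered samples nothing in common but the number, and whether they shared a preparation is not known here. Correlations of deviations between groups ran from -0.29 to 0.40, the highest between untreated control and untreated knockout cells. With the replicate number as a block, knockout against control with corticosterone gave 5 calls on 7 arrays, without those of Ccl8, Cxcl12 and Ccr2, and the calls of Ccl3 and Ccr1 without hormone were also absent (adjusted p = 0.133 and 0.1). The count was 0 in each contrast on 8 arrays. Leaving out each of the 7 arrays in turn gave 14 to 18 calls for corticosterone in knockout cells, 13 to 25 in control cells, 3 to 11 and 7 to 27 for knockout against control with and without hormone, and 0 to 26 for the interaction. Leaving out control untreated replicate 1 keeps replicate 2 as the whole group, and the lone sample is assumed to vary like the other groups. That gave the upper end of ranges that crossed 0: for corticosterone in control cells -0.88 to 0.71 for Ccl5, -0.52 to 0.0051 for Ccl6, -0.62 to 0.50 for Ccr1 and -1.26 to 0.76 for Ccr7, and for Ccr1 in knockout against control without hormone -0.32 to 0.82. Cx3cr1 in control cells ran from -0.49 to 0.15, with 0.15 both then and without control corticosterone replicate 2. Ccr1 in knockout against control without hormone was 0.26 with 8 arrays, with array weights and with 8 arrays and the block. The cause was not tested, apart from the array left out. Over the called differences of the 34 genes, those of Cx3cr1 in every contrast and the alternatives run, 630 values kept their direction and side of the threshold, 230 kept the direction and lost the call, 1 gained a call and 10 reversed. With only the arrays compared the interaction is the fit already given.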
